A study of Mus musculus with 16 samples.

Results

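NF-kB is a family of transcription factors built as pairs of subunits, and all members of the family are covered here: Rel, Rela, Relb, Nfkb1 and Nfkb2. Every probe whose RefSeq accession in the array files maps to these symbols was taken, without regard to its values. Gene names in the array files were not searched. The accessions left 28446 probes without a symbol, so further probes of these genes could have been missed. That gave 7 probes for 5 genes, of 55681 probes and 20660 genes with a probe on the array. Of these, 6 probes of 4 genes were bright enough to be tested, among 14675 genes tested in all.

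Transcript levels were measured in CD4+ T cells of the mouse spleen on 16 one-colour microarrays, 1 per sample, from males aged 8 to 10 weeks. All animals carried Cre recombinase under the CD4 promoter. The control group (CD4cre) carried Cre alone, the IKK2 knockout (CD4xIKK2) also carried floxed IKK2 alleles and the NEMO knockout (CD4xNEMO) carried floxed NEMO alleles. Each genotype was sampled without disease and on day 10 of nephrotoxic serum nephritis (NTN), a glomerulonephritis induced by injecting sheep serum at 2.5 mg per g of body weight. The Cre control and IKK2 knockout had 3 arrays in each condition and the NEMO knockout had 2. CD4-Cre acts while T cells develop and in all descendants of cells that once made CD4. No label states that replicates were different mice, and p-values here reflect the spread among the arrays given, part or all of which could be technical. According to its title, the series contrasts the 2 knockouts by way of the non-canonical pathway, and the levels of the subunit genes bear on that comparison.

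In the canonical pathway, the IKK complex, made of the kinases IKK1 and IKK2 and the regulatory subunit NEMO, marks the inhibitor IkB-alpha for degradation. This frees dimers of RelA or c-Rel with p50, the processed product of Nfkb1. In the non-canonical pathway, the kinase NIK acts through IKK1 and without NEMO. It triggers processing of the Nfkb2 product p100 to p52, which enters the nucleus with RelB. In T cells, canonical NF-kB is switched on by the antigen receptor and costimulation, and Nfkb2 and Relb are themselves known target genes of NF-kB.

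Of the 5 genes 3 matched the promoter table, Rel, Rela and Nfkb2, and Relb and Nfkb1 did not. The start regions of Nfkb2 and Rela are shown because these genes moved in opposite directions in the NEMO knockout, so the pair was chosen on its values and stands for no other subunit. Sequences are from RefSeq (mouse assembly GRCm38.p6, plus strand for both genes, which lie on chromosome 19), read 5′ to 3′, and end just before an annotated transcript start or gene start. Capitals mark matches to the 10-base kappaB consensus, searched on both strands with overlapping matches counted. The Nfkb2 run covers chr19:46304487-46304736 and holds 3 matches, 2 of which overlap. The Rela run covers chr19:5637291-5637441 and holds none.
Nfkb2, before the first start: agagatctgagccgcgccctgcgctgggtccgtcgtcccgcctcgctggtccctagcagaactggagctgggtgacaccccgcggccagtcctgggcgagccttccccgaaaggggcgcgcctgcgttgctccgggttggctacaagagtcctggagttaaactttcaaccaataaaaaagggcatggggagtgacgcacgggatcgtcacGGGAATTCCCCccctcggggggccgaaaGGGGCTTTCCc
Rela, before the gene start: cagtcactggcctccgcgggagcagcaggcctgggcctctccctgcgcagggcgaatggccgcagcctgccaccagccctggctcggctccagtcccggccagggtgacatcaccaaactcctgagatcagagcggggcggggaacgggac
The windows of 300 bases around the other Nfkb2 transcript starts held further matches, given as 30-base stretches at chr19:46305449-46305478 and chr19:46305695-46305724.
Nfkb2, first further match: tccgacggcaGGAATGTCCCcacaaaagcc
Nfkb2, second further match: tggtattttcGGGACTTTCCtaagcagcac
Of 32851 windows of this length around RefSeq starts, 8.46% held a match, and 9.55% of 27025 genes had a window with one. Rel also had 2 matches, which overlap, and Rela had 0 in its whole window of 300 bases. A match is a description of the letters in these windows. The arrays did not measure binding.

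Levels below are log2 processed intensity minus the 75th percentile of the same array, so a level of 0 equals that percentile, a difference of 1 is a doubling, and levels of different probes are not comparable. Of the spots on each array, 48.8% to 59.8% were well above background. Earlier results of these data set apart Cre control replicate 2 with nephritis, which had the lowest of these shares and 246 outlier spots, the most of any array, and Cre control replicate 1 without nephritis, which had the lowest 75th percentile, an intensity of 265. Without both, the nephritic IKK2 differences of Nfkb2 (-0.58, adjusted p = 0.103) and Relb (-0.58, adjusted p = 0.0706), the untreated NEMO difference of Nfkb1 (0.37, adjusted p = 0.0531) and the Rela difference between the nephritic knockouts (-0.25, adjusted p = 0.0558) no longer passed, and the other differences that are called below still did. The arrays lay on 3 slides. All 4 NEMO arrays were alone on slide 3, so NEMO knockout and slide cannot be told apart. The nephritic Cre and IKK2 arrays all lay on slide 1, the untreated Cre arrays on slide 2, and the untreated IKK2 arrays on slide 1 (replicates 1 and 2) and slide 2 (replicate 3). The targeted gene Ikbkb, which encodes IKK2, read 3.29 to 3.31 on untreated Cre arrays and 2.88 to 3.31 on untreated IKK2 arrays, which overlap. With nephritis it read 3.18 to 3.45 in Cre controls and 2.91 to 3.02 in the IKK2 knockout, which do not. On the 4 NEMO arrays it read 2.78 to 3.06. The brighter probe of Ikbkg, which encodes NEMO, read -0.85 to -0.52 on untreated Cre arrays and -0.94 to -0.74 on untreated NEMO arrays, which overlap. With nephritis it read -0.40 to -0.26 in Cre controls and -0.71 to -0.59 in the NEMO knockout, which do not. Such separation from nephritic Cre arrays was seen for 24.9% of all genes in the nephritic IKK2 knockout and for 70.2% in the nephritic NEMO knockout. The weaker Ikbkg probe overlapped in both conditions. It read -1.87 to -1.41 on untreated Cre and -1.83 to -1.82 on untreated NEMO arrays. With nephritis it read -1.75 to -1.39 in Cre controls and -1.62 to -1.51 in the NEMO knockout. No label or file places these probes relative to the deleted exons, and signal from outside the deleted part is no check of the knockout. All 14 T cell identity markers, Cd4 and Cd3e among them, were well above background on all 16 arrays.

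**Figure D1:**
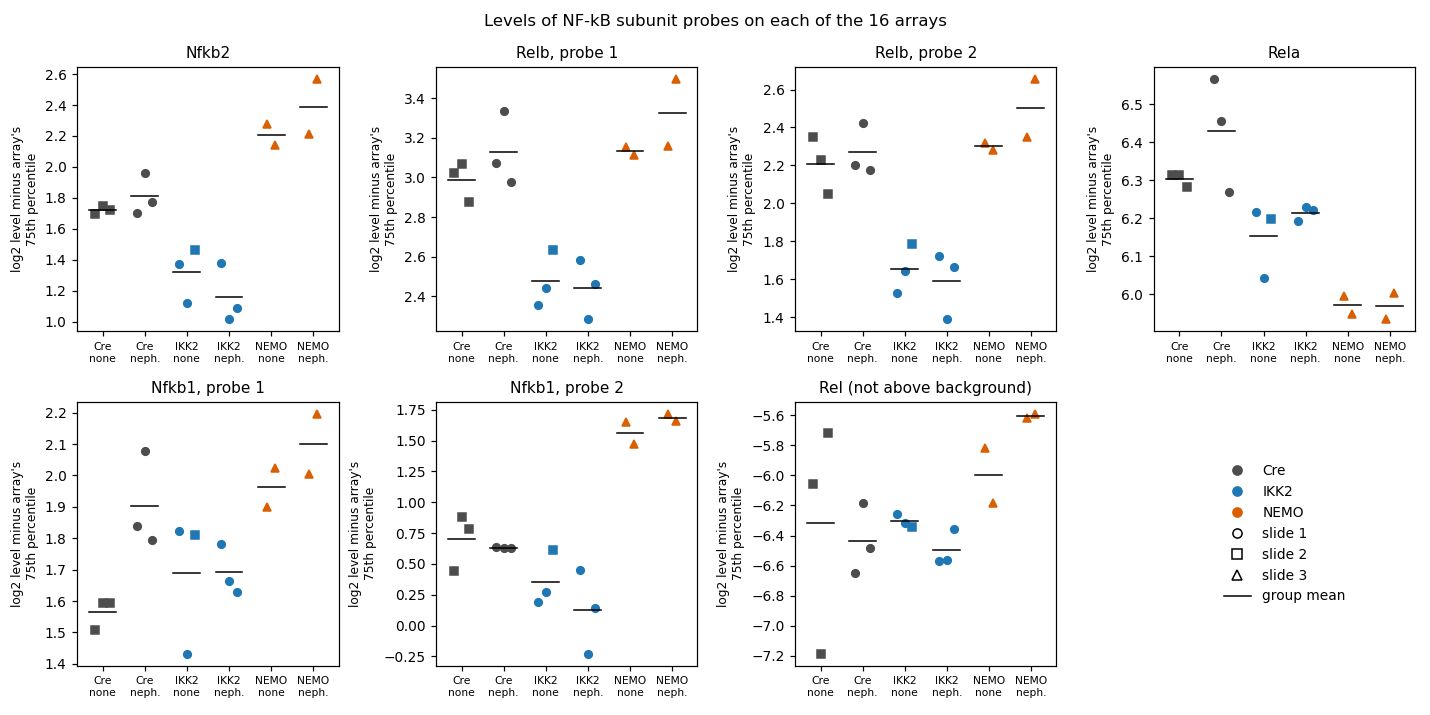
Level of each of the 7 probes (vertical axes, log2 intensity minus the array's 75th percentile, each panel on its own scale) on each array in the 6 groups; marker shape gives the slide and the bar is the group mean. Nfkb2 is lowest in the IKK2 knockout and highest in the NEMO knockout, both Relb probes are lowest in the IKK2 knockout, and Rela is lowest in the NEMO knockout.

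Nfkb2, whose product p100 is both an inhibitor and the precursor of p52, was lower than in Cre controls in the nephritic IKK2 knockout and higher in the NEMO knockout in both conditions. Its level was 1.70, 1.74 and 1.72 on the untreated Cre arrays and 1.70, 1.96 and 1.77 on the nephritic ones. In the IKK2 knockout it was 1.37, 1.12 and 1.47 without nephritis and 1.38, 1.01 and 1.09 with it. On NEMO arrays it was 2.28 and 2.14 without nephritis and 2.21 and 2.57 with it. The genotypes did not overlap, with all 6 IKK2 arrays below all 6 Cre arrays and all 4 NEMO arrays above them. How many of all genes separate in this way over both conditions together was not counted. Ordered by group mean, the groups ran from nephritic NEMO (2.39) and untreated NEMO (2.21) through nephritic Cre (1.81) and untreated Cre (1.72) to untreated IKK2 (1.32) and nephritic IKK2 (1.16). Neighbouring groups of the same genotype overlapped.

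In the limma model of all 16 arrays, with p-values adjusted over all genes, Nfkb2 fell in the nephritic IKK2 knockout by 0.65 (SE 0.13, adjusted p = 0.0227), which is 1.57-fold. Without nephritis its difference was -0.40 (SE 0.13, 95% interval -0.68 to -0.12, adjusted p = 0.0550) and did not pass. With NEMO deleted it rose by 0.49 (SE 0.14, adjusted p = 0.0164) without nephritis and by 0.58 (SE 0.14, adjusted p = 0.00597) with it, 1.40-fold and 1.49-fold. The 2 knockouts were compared with the same Cre arrays, so these values share their controls. An exact two-sided permutation test over the arrays gave p = 0.1 for each of the 4 comparisons, the smallest that 3 arrays against 3 or against 2 allow. In cell populations such as these, fewer cells of a type and less RNA per cell cannot be told apart.

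The nephritic IKK2 difference of Nfkb2 lay within slide 1. It no longer passed without Cre replicate 2 (-0.58, adjusted p = 0.0830) or 3 (-0.67, adjusted p = 0.0534), without IKK2 replicate 2 (-0.58, adjusted p = 0.104) or 3 (-0.61, adjusted p = 0.0779), or in a fit with the replicate number as a block (-0.65, adjusted p = 0.0513). The NEMO difference no longer passed without replicate 1 of the untreated NEMO arrays (0.42, adjusted p = 0.118) or replicate 2 of the nephritic ones (0.40, adjusted p = 0.0903). The direction was the same in each of these fits.

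Relb encodes the partner of p52. It was lower in the IKK2 knockout in both conditions, on both of its probes, and did not pass against controls in the NEMO knockout. Its brighter probe read 3.02, 3.07 and 2.87 on untreated Cre arrays and 3.07, 3.33 and 2.98 on nephritic ones. In the IKK2 knockout it read 2.36, 2.44 and 2.63 without nephritis and 2.58, 2.28 and 2.46 with it. All 6 IKK2 arrays lay below all 6 Cre arrays, a separation whose share among all genes was likewise not counted. The NEMO arrays read 3.15 and 3.11 without nephritis and 3.16 and 3.50 with it, within or just above the range of the Cre arrays. By group mean, nephritic NEMO (3.33), untreated NEMO (3.13), nephritic Cre (3.13) and untreated Cre (2.99) stood above untreated IKK2 (2.48) and nephritic IKK2 (2.44). Only the step from untreated Cre to untreated IKK2, 0.51, was larger than the spread within the neighbouring groups.

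By limma, Relb fell in the IKK2 knockout by 0.51 (SE 0.12, adjusted p = 0.0191) without nephritis and by 0.69 (SE 0.12, adjusted p = 0.0152) with it, 1.43-fold and 1.61-fold. The second probe fell by 0.56 (adjusted p = 0.0187) and 0.68 (adjusted p = 0.0292) in the same model over all 34938 probes tested. Without nephritis the groups lay mostly on different slides. On slide 2 the only IKK2 array, 2.63, lay below the 3 Cre arrays, 2.87 to 3.07, and the difference with slide as a block was -0.35 (SE 0.17, adjusted p = 0.270). It also no longer passed without Cre replicate 1 (-0.50, adjusted p = 0.0514) or 2 (-0.47, adjusted p = 0.0645), or without IKK2 replicate 1 (-0.45, adjusted p = 0.0598) or 2 (-0.49, adjusted p = 0.0538). With nephritis it no longer passed without replicate 2 of Cre (-0.58, adjusted p = 0.0557) or of IKK2 (-0.61, adjusted p = 0.0754). For NEMO the Relb difference was 0.14 (SE 0.14, 95% interval -0.16 to 0.45) without nephritis and 0.20 (SE 0.14, 95% interval -0.10 to 0.50) with it.

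In all, 1 of the 4 tested subunit genes was lower in the untreated IKK2 knockout and none was higher, where 4.52% of all genes tested were lower, 10.0% higher and 14.6% either. In the nephritic IKK2 knockout 2 of 4 were lower, Relb and Nfkb2, and none was higher, where 1.59% of all genes were lower, 0.988% higher and 2.58% either. In the untreated NEMO knockout 2 of 4 were higher, Nfkb2 and Nfkb1, and Rela was lower, where 21.0% of all genes were higher, 22.0% lower and 43.0% either. With nephritis Nfkb2 was higher and Rela lower in the NEMO knockout, where 18.8% of all genes were higher, 29.6% lower and 48.3% either. With so many genes passing, the NEMO counts are no result about the subunits as a group. Over all probes tested, 11.0% and 1.04% passed in the IKK2 knockout and 38.8% and 41.0% in the NEMO knockout, without and with nephritis. Groups that did not overlap were also common among all genes, at 30.0% and 24.9% for the IKK2 knockout and 67.0% and 70.2% for the NEMO knockout, without and with nephritis.

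**Figure D2:**
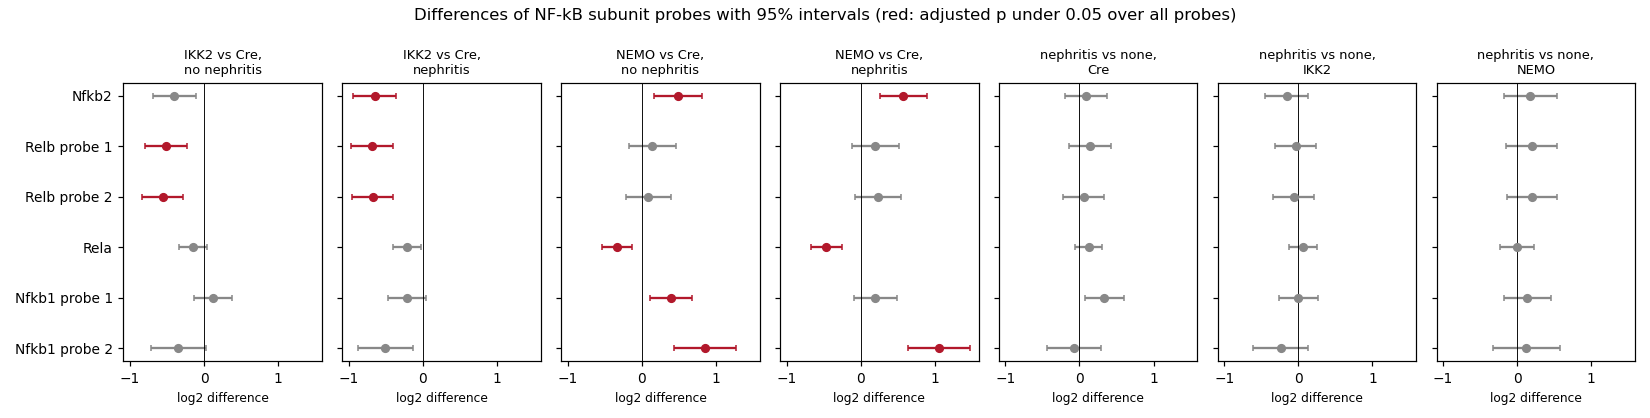
Differences (horizontal axes, log2) of the 6 tested probes in the comparisons of each knockout with Cre controls and of nephritis with no nephritis; points are limma estimates, lines 95% intervals, and red marks an adjusted p under 0.05 over all probes. Both Relb probes fall in the IKK2 knockout, Nfkb2 rises and Rela falls in the NEMO knockout, and no probe passes for nephritis in any genotype.

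Rela, the transactivating subunit of the main canonical dimer, was lower in the NEMO knockout in both conditions. Its level was 6.31, 6.31 and 6.28 on untreated Cre arrays and 6.57, 6.45 and 6.27 on nephritic ones. On NEMO arrays it was 5.995 and 5.948 without nephritis and 5.934 and 6.004 with it. The 6 IKK2 arrays lay between, at 6.22, 6.04 and 6.20 without nephritis and 6.19, 6.23 and 6.22 with it. The highest IKK2 array lay below the lowest Cre array and the lowest IKK2 array above the highest NEMO array. The share of all genes ordered in this way was not counted. Group means ran from 6.43 in nephritic Cre and 6.30 in untreated Cre to 6.21 and 6.15 in nephritic and untreated IKK2 and 5.97 in both NEMO groups, with overlap only within a genotype. By limma, Rela fell in the NEMO knockout by 0.33 (SE 0.09, adjusted p = 0.00947) without nephritis and by 0.46 (SE 0.09, adjusted p = 0.00120) with it. These falls were 1.26-fold and 1.38-fold. Neither reached the lower quartile of the differences of all genes, -0.39 without and -0.47 with nephritis. The untreated difference was -0.31 without replicate 2 of the untreated NEMO arrays, a fit that leaves 1 array in that group. In the IKK2 knockout Rela differed by -0.15 (SE 0.08, adjusted p = 0.220) without nephritis and by -0.21 (SE 0.08, adjusted p = 0.181) with it, and neither passed.

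Rel encodes c-Rel, the other canonical transactivating subunit, which is prominent in lymphocytes. The only probe that a RefSeq accession tied to Rel was not well above background on any of the 16 arrays. Its values lay between -7.18 and -5.59. The lowest value well above background lay between -5.88 and -4.08 on these arrays, and the Rel probe exceeded its array's own on 1 array. The probe therefore gave no level for Rel, and no comparison was made. That array was nephritic NEMO replicate 2. Left unfiltered, the probe would have passed between the nephritic NEMO knockout and Cre controls (0.83, SE 0.32, adjusted p = 0.0490) and between the nephritic NEMO and IKK2 knockouts (0.89, SE 0.32, adjusted p = 0.0399), with no array of these groups well above background, so that no direction is drawn.

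Nfkb1 encodes p105, the precursor of p50. Its 2 probes, both well above background on all 16 arrays, disagreed. The brighter one read 1.51, 1.59 and 1.59 on untreated Cre arrays, 1.84, 2.08 and 1.80 on nephritic Cre arrays, 1.82, 1.43 and 1.81 on untreated IKK2 arrays and 1.78, 1.67 and 1.63 on nephritic IKK2 arrays. On NEMO arrays it read 1.90 and 2.02 without nephritis and 2.01 and 2.20 with it. The untreated Cre arrays were all below the NEMO arrays. Untreated IKK2 replicate 2 was the lowest of the 16 arrays, and nephritic Cre replicate 2 was higher than 3 of the 4 NEMO arrays. The weaker probe read 0.45, 0.88 and 0.79 on untreated Cre arrays, 0.64, 0.63 and 0.63 on nephritic Cre arrays, 0.19, 0.27 and 0.61 on untreated IKK2 arrays and 0.45, -0.23 and 0.15 on nephritic IKK2 arrays. On NEMO arrays it read 1.65 and 1.47 without nephritis and 1.72 and 1.66 with it, well above every other array.

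By limma the brighter Nfkb1 probe rose in the untreated NEMO knockout by 0.40 (SE 0.13, adjusted p = 0.0255). With nephritis it differed by 0.20 (SE 0.13, 95% interval -0.08 to 0.47, adjusted p = 0.222). The weaker probe rose by 0.86 (SE 0.19, adjusted p = 0.00409) and by 1.06 (SE 0.19, adjusted p = 0.00101). In the IKK2 knockout the brighter probe differed by 0.12 (SE 0.11, adjusted p = 0.510) and -0.21 (SE 0.11, adjusted p = 0.344) without and with nephritis, and the weaker one by -0.35 (SE 0.17, adjusted p = 0.208) and -0.51 (SE 0.17, adjusted p = 0.183). The 2 probes thus pointed in opposite directions in the untreated IKK2 knockout, and neither passed. The rise of the brighter probe no longer passed without replicate 1 of the untreated Cre arrays (0.37, adjusted p = 0.0630), or without replicate 1 (0.46, adjusted p = 0.0602) or 2 (0.33, adjusted p = 0.158) of the untreated NEMO arrays, or with slide as a random block (0.41, adjusted p = 0.0508). Across the 12 Cre and IKK2 arrays the 2 Nfkb1 probes correlated at r = 0.18, against 0.98 for the 2 Relb probes, as a description of arrays that share slides and groups. Over the same arrays the weaker Nfkb1 probe correlated with Nfkb2 at r = 0.84 and the brighter one at 0.43. The weaker probe had 2 spots per array, which differed by up to 1.57-fold in intensity.

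**Figure D3:**
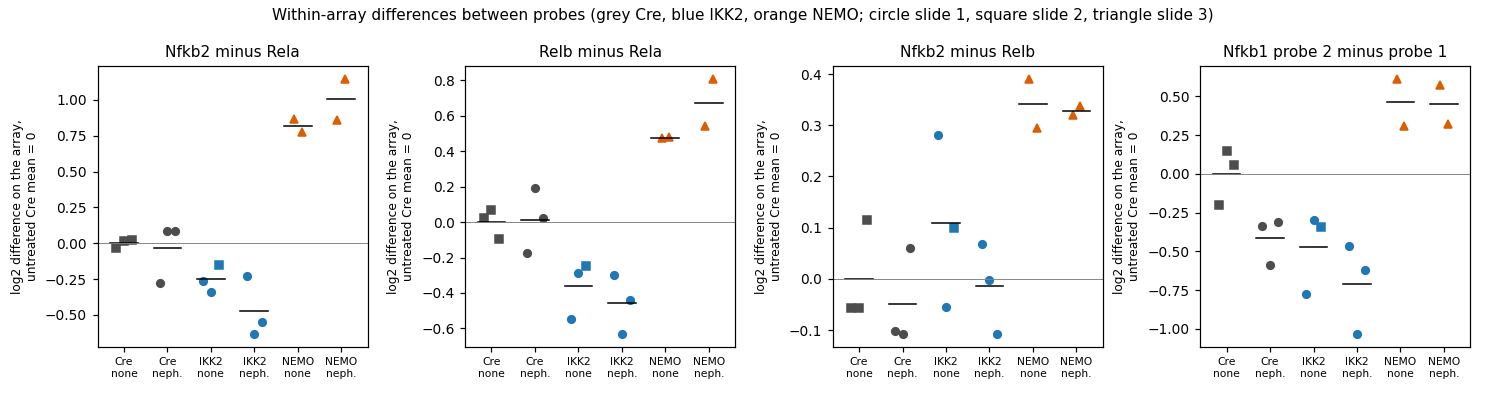
Difference between 2 probes on the same array (vertical axes, log2), set to a mean of 0 over the untreated Cre arrays, in the 6 groups; points are arrays, bars group means, and axes differ between panels. Nfkb2 minus Rela is 0.77 to 1.14 on the NEMO arrays and -0.63 to -0.15 on the IKK2 arrays, and the Nfkb1 probe difference is above 0.3 on the NEMO arrays only.

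The difference between 2 subunits on the same array does not depend on the factor by which that array is scaled. Relative to the untreated Cre mean, Nfkb2 minus Rela was 0.77 to 0.87 in the untreated and 0.86 to 1.14 in the nephritic NEMO knockout. In the IKK2 knockout it was -0.34 to -0.15 and -0.63 to -0.23. The nephritic Cre arrays lay at -0.28 to 0.09. Relb minus Rela followed the same order, at 0.47 to 0.81 on NEMO arrays and -0.63 to -0.25 on IKK2 arrays. Rela was itself lower in the NEMO knockout (-0.33 and -0.46 without and with nephritis), and Relb did not pass there (0.14 and 0.20). Differences from Rela thus also carry the change of Rela and do not show a rise of Relb. Nfkb2 minus Relb stayed between -0.11 and 0.28 on Cre and IKK2 arrays and was 0.29 to 0.39 on the 4 NEMO arrays. The levels of these 2 genes correlated at r = 0.94 over the 12 Cre and IKK2 arrays, as a description of arrays that share slides and groups. The difference of the 2 Nfkb1 probes was 0.31 to 0.61 on NEMO arrays, and below 0 on all nephritic Cre arrays (-0.59 to -0.31) and all 6 IKK2 arrays (-1.03 to -0.30).

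Set against each other, the knockouts differed in both genes of the non-canonical dimer. Nfkb2 was higher in the NEMO than in the IKK2 knockout by 0.89 (SE 0.14, adjusted p = 0.000554) without nephritis and by 1.23 (SE 0.14, adjusted p = 3.87e-05) with it, and Relb by 0.66 (SE 0.14, adjusted p = 0.00326) and 0.89 (SE 0.14, adjusted p = 0.000320). These 4 results passed in each of the alternatives that could be fitted. The brighter probe of Nfkb1 (0.41, SE 0.13, adjusted p = 0.0203) was also higher and Rela (-0.25, SE 0.09, adjusted p = 0.0378) lower in the nephritic NEMO knockout. The weaker Nfkb1 probe was higher by 1.20 (SE 0.19, adjusted p = 0.000732) without nephritis and 1.56 (SE 0.19, adjusted p = 7.41e-05) with it, by limma over all probes. These differences were larger than those of Nfkb2 and Relb, so the contrast was not particular to that pair. Of 30 alternatives, Nfkb1 no longer passed in 7 and Rela in 15. Neither passed, for instance, without replicate 2 of the nephritic IKK2 arrays (0.40, adjusted p = 0.0502, and -0.24, adjusted p = 0.0823). All 4 tested subunit genes passed with nephritis and 2 of 4 without, where 46.1% and 35.3% of all genes passed. The groups did not overlap for any of the 4 genes in either condition, as was the case for 72.8% and 58.9% of all genes. No slide holds both knockouts, so knockout and slide cannot be told apart here.

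Nephritis moved no subunit gene past the threshold in any genotype by limma, where 4.03% of all genes passed in Cre controls, 0.443% in the IKK2 knockout and 0.416% in the NEMO knockout. Among the 12 tests of 4 genes in 3 genotypes, Nfkb1 in Cre controls alone reached an unadjusted p under 0.05. Its brighter probe was higher on all 3 nephritic than on all 3 untreated Cre arrays, by 0.34 (SE 0.11, 95% interval 0.09 to 0.59, unadjusted p = 0.0119, adjusted p = 0.106), while 29.5% of all genes showed no overlap there. The weaker probe differed by -0.07 (SE 0.17), and these 2 groups lie on different slides. For the other tested genes the Cre differences were 0.09 (95% interval -0.19 to 0.37) for Nfkb2, 0.14 (-0.13 to 0.41) for Relb and 0.13 (-0.05 to 0.30) for Rela. The nephritis response did not pass as different between genotypes for any subunit gene, where 1.13% of all genes passed for IKK2 minus Cre, 0.266% for NEMO minus Cre and 0.252% for NEMO minus IKK2. The interval of that difference for Nfkb2 was -0.64 to 0.15 for IKK2 minus Cre and -0.35 to 0.53 for NEMO minus Cre, so responses of that size cannot be told from none with 2 or 3 arrays per group.

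Other genes of the pathway are given next by role, with counts to be read beside the shares of all genes. In the IKK2 knockout 10.0% of all genes were higher and 4.52% lower without nephritis, and 0.988% and 1.59% with it. In the NEMO knockout 21.0% were higher and 22.0% lower without nephritis, and 18.8% and 29.6% with it. Of 14 genes for IkB proteins and feedback inhibitors, which NF-kB itself often induces, 3 fell and none rose in the untreated IKK2 knockout and 2 fell with nephritis. Nfkbia, which encodes IkB-alpha, fell by 0.80 (SE 0.07, adjusted p = 0.000246) and 0.32 (SE 0.07, adjusted p = 0.0407). Tnip1, a partner of A20, fell by 0.54 (SE 0.09, adjusted p = 0.00371) and 0.61 (SE 0.09, adjusted p = 0.00642), and Tnfaip3, which encodes A20, fell by 0.73 (SE 0.16, adjusted p = 0.0133) without nephritis. In the NEMO knockout 4 rose and 2 fell without nephritis, and 2 rose and 1 fell with it. Tnfaip3 rose by 0.65 (SE 0.18, adjusted p = 0.0141) and Bcl3, a nuclear IkB protein that binds p50 and p52, by 0.80 (SE 0.17, adjusted p = 0.00305) without nephritis. Tnip2 rose by 0.43 (SE 0.14) and Nfkbib by 0.41 (SE 0.12) with nephritis, and Pias1 fell by 0.63 (SE 0.09) and 0.61 (SE 0.09). The median differences of the list, -0.10 and -0.06 in the IKK2 knockout and 0.10 and 0.02 in the NEMO knockout, stood beside 0.05, -0.03, -0.06 and -0.14 for all genes.

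Of 25 genes for kinases and adaptors, 2 rose and 2 fell in the untreated IKK2 knockout, and none rose and 2 fell with nephritis. Traf3, which targets NIK for degradation and so restrains the non-canonical pathway, fell by 0.43 (SE 0.10, adjusted p = 0.0135) and 0.54 (SE 0.10, adjusted p = 0.0131). Map3k14, which encodes NIK, differed by 0.33 (SE 0.10, adjusted p = 0.0571) and 0.32 (SE 0.10, adjusted p = 0.145). Bcl10, an adaptor of antigen receptor signals, fell by 0.41 (SE 0.09) with nephritis. Ikbkg (0.68, SE 0.10, adjusted p = 0.00153) and the kinase gene Ripk1 (0.43, SE 0.12, adjusted p = 0.0339) were higher without nephritis. With NEMO deleted, 4 rose and 7 fell without nephritis, and 3 rose and 14 fell with it. Of all genes, 22.0% and 29.6% fell there. Ikbke, a kinase gene of the interferon arm, fell without and with nephritis (-0.974 and -1.001, SE 0.126), as did Prkcq, the T cell kinase PKC-theta (-0.61 and -0.70, SE 0.11), and Traf6, an adaptor (-0.69 and -0.60, SE 0.11). Map3k14 (-0.35, SE 0.12, adjusted p = 0.0262) fell there with nephritis. The list's median was -0.08 and -0.34 in the NEMO knockout, and 0.00 and -0.10 in the IKK2 knockout. For all genes it was -0.06 and -0.14, and 0.05 and -0.03.

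Of 19 tested genes for ligands and receptors that feed these pathways (20 in the list), 3 rose and 3 fell in the untreated IKK2 knockout, and 2 rose and 4 fell with nephritis. Ltb, a subunit of the lymphotoxin that engages the non-canonical pathway, fell by 0.67 (SE 0.10, adjusted p = 0.00605) with nephritis, and Tnfsf11, which encodes RANKL, by 0.996 (SE 0.224, adjusted p = 0.0408). Tnfrsf12a, the TWEAK receptor gene, rose by 0.76 (SE 0.17, adjusted p = 0.0384). In the NEMO knockout 9 rose and 3 fell without nephritis, and 8 rose and 2 fell with it. Of all genes, 21.0% and 18.8% rose there. Tnfsf14, the gene of the ligand LIGHT, rose by 2.79 (SE 0.48, adjusted p = 0.000588) and Cd27, a costimulatory receptor of T cells, fell by 2.11 (SE 0.12, adjusted p = 3.50e-07) with nephritis. Tnfrsf13c, the BAFF receptor of B cells, rose by 2.38 (SE 0.31) in the untreated IKK2 and by 3.11 (SE 0.35) in the untreated NEMO knockout. Cd40, which B cells and myeloid cells carry, was not well above background on any untreated Cre array and was at least 10.4-fold higher in the untreated IKK2 knockout (adjusted p = 0.00908) and at least 8.92-fold higher in the untreated NEMO knockout (adjusted p = 0.00628). These bounds are taken against the lowest signal well above background. Ltbr, the lymphotoxin receptor gene of non-lymphoid cells, was measured on 2 of 3 untreated Cre arrays and rose there by 1.62 (SE 0.45) in the IKK2 and 2.40 (SE 0.50) in the NEMO knockout. The list's median was 0.09 and -0.11 in the IKK2 knockout and 0.46 and 0.23 in the NEMO knockout. For all genes it was 0.05 and -0.03, and -0.06 and -0.14.

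Of 25 NF-kB target genes, 3 rose and 3 fell in the untreated IKK2 knockout, and 1 rose and 3 fell with nephritis, with medians of 0.04 and -0.02. Il2 fell by 1.67 (SE 0.29, adjusted p = 0.00406) and 1.64 (SE 0.29, adjusted p = 0.0131), and Il2ra, the alpha chain of the IL-2 receptor, by 1.40 (SE 0.26, adjusted p = 0.00523) and 1.72 (SE 0.26, adjusted p = 0.00605). Cd69, a marker of early activation, rose by 1.10 (SE 0.12, adjusted p = 0.00105) with nephritis. Among NEMO knockout cells 13 rose and 3 fell without nephritis, and 15 rose and 5 fell with it, with medians of 0.72 and 0.70. Of all genes, 21.0% and 18.8% rose there, with medians of -0.06 and -0.14. Ifng rose by 3.41 (SE 0.53, adjusted p = 0.000326) and 3.98 (SE 0.53, adjusted p = 9.97e-05). Ier3, a stress response gene, rose by 3.03 (SE 0.54) and 3.28 (SE 0.54), although 1 nephritic Cre array was not well above background. Vcam1, an adhesion molecule of stromal and myeloid cells, was measured on 2 of 3 arrays in each Cre group. It rose by 4.42 (SE 1.17) in the untreated IKK2 knockout and by 5.27 (SE 1.31) and 4.37 (SE 1.31) in the NEMO knockout.

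**Figure D4:**
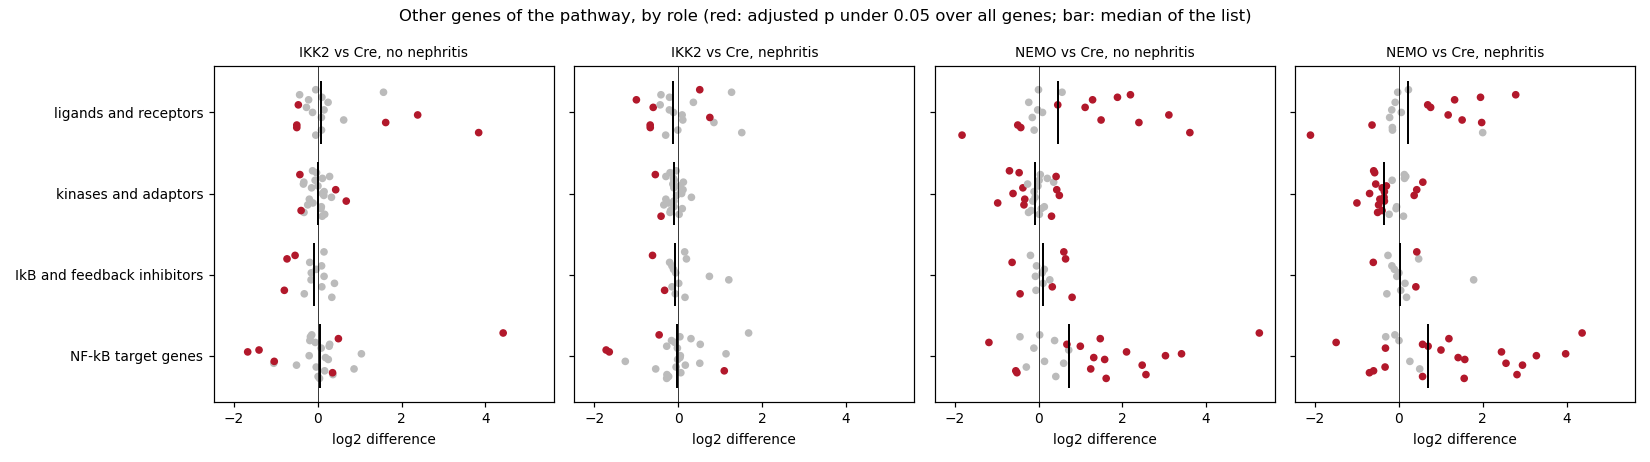
Difference from Cre controls (horizontal axes, log2) of each tested gene of 4 pathway lists in both knockouts and both conditions; a point is a gene, red marks an adjusted p under 0.05 over all genes, and the bar is the list's median. Target genes and ligands and receptors extend to the right in the NEMO knockout. The kinases and adaptors have a median of -0.34 in the nephritic NEMO knockout, where that of all genes is -0.14.

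Markers of other cell types moved with some of these groups. In the untreated IKK2 knockout 13 of 17 B cell markers, 11 of 15 tested myeloid markers and 6 of 11 tested dendritic cell markers were higher than in untreated Cre controls. Of all genes, 10.0% were higher there. Relative to the untreated Cre mean, the mean level of the B cell list was -0.11 to 0.08 on untreated Cre arrays, 0.538 to 1.498 on nephritic Cre arrays, 1.89 to 2.28 and 1.55 to 2.06 on untreated and nephritic IKK2 arrays, and 1.72 to 1.86 and 1.48 to 1.66 on NEMO arrays. The myeloid list ranged from -0.35 to 0.63 and 0.43 to 2.28 in Cre controls, from 2.24 to 2.45 and 2.04 to 2.70 in the IKK2 knockout, and from 2.08 to 2.49 and 2.94 to 3.58 in the NEMO knockout. With nephritis none of the 17 B cell, 15 myeloid or 11 dendritic cell markers passed between IKK2 knockout and Cre control, but their median differences were 0.66, 0.57 and 1.16, against -0.03 for all genes, and the B cell list means did not overlap. In the NEMO knockout 12 B cell markers rose and 1 fell, 10 myeloid markers rose and 1 fell and 9 dendritic cell markers rose without nephritis. With nephritis 4 B cell markers rose and 2 fell, 9 myeloid markers rose and 1 fell and 7 dendritic cell markers rose. Of all genes, 21.0% rose and 22.0% fell in the NEMO knockout without nephritis, and 18.8% and 29.6% with it. Of 12 CD8 and NK cell markers, 6 rose and 1 fell in the untreated and none passed in the nephritic IKK2 knockout, and 9 and 7 rose and 2 and 2 fell in the NEMO knockout. T cell identity markers did not pass in the IKK2 knockout, and 5 and 6 of 14 were lower in the NEMO knockout. None of 9 tested erythroid markers passed in these 4 comparisons, and their mean level was 0.519 to 4.46 on the nephritic Cre arrays, with replicate 3 the highest of all 16.

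The summed level of the B cell markers, in units of the array's 75th percentile, was 13.97 to 15.44 on untreated Cre arrays and 20.7 to 28.8 on nephritic ones, 32.1 to 38.7 and 27.4 to 40.9 on IKK2 arrays, and 29.98 to 31.43 and 39.4 to 40.5 on NEMO arrays. That of the T cell markers was 1557 to 1916 on all 16 arrays. The summed myeloid level, unlike the list's mean, was lower on untreated IKK2 arrays (286 to 348) and untreated NEMO arrays (299 to 321) than on untreated Cre arrays (364 to 375). With nephritis it overlapped between genotypes, at 285 to 377 in Cre controls, 357 to 451 in the IKK2 knockout and 336 to 408 in the NEMO knockout. Of the 17 B cell markers 14 were well above background on 15 or 16 arrays and 3 on fewer, Pax5 among them on 2. Of 15 myeloid markers 10 were well above background on 15 or 16 arrays and 5 on fewer. Of 13 dendritic cell markers 9 were so on 15 or 16 arrays, 2 on fewer, and Xcr1 and Ccl22 on none. With the mean of the B cell markers as a covariate, the Relb difference in the untreated IKK2 knockout was -0.13 (SE 0.37, adjusted p = 0.968), and in the nephritic one -0.56 (SE 0.17, adjusted p = 0.258). The Nfkb2 difference was -0.61 (SE 0.19, adjusted p = 0.246) in the nephritic IKK2 knockout and 0.59 (SE 0.37, adjusted p = 0.400) in the untreated NEMO knockout. That of Rela in the untreated NEMO knockout was -0.07 (SE 0.21, adjusted p = 0.888). In the nephritic NEMO knockout Nfkb2 (0.61, SE 0.17, adjusted p = 0.0194) and Rela (-0.39, SE 0.10, adjusted p = 0.0112) still passed. With the mean of the myeloid and dendritic cell markers in its place, Relb passed in the nephritic IKK2 knockout (-0.71, SE 0.15, adjusted p = 0.0440), and Nfkb2 (-0.68, SE 0.15, adjusted p = 0.0538) and the NEMO differences from Cre controls did not. Genotype and marker level lie close together in these groups, and calls among all 14675 genes fell in the same fits. With the B cell covariate 2137 became 0 in the untreated and 378 became 28 in the nephritic IKK2 knockout. In the untreated NEMO knockout 6315 became 838. With the myeloid and dendritic covariate 7095 became 3624 in the nephritic NEMO knockout. A lost call is therefore not particular to the subunit genes, and the part of other cells in the differences was not tested.

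**Figure D5:**
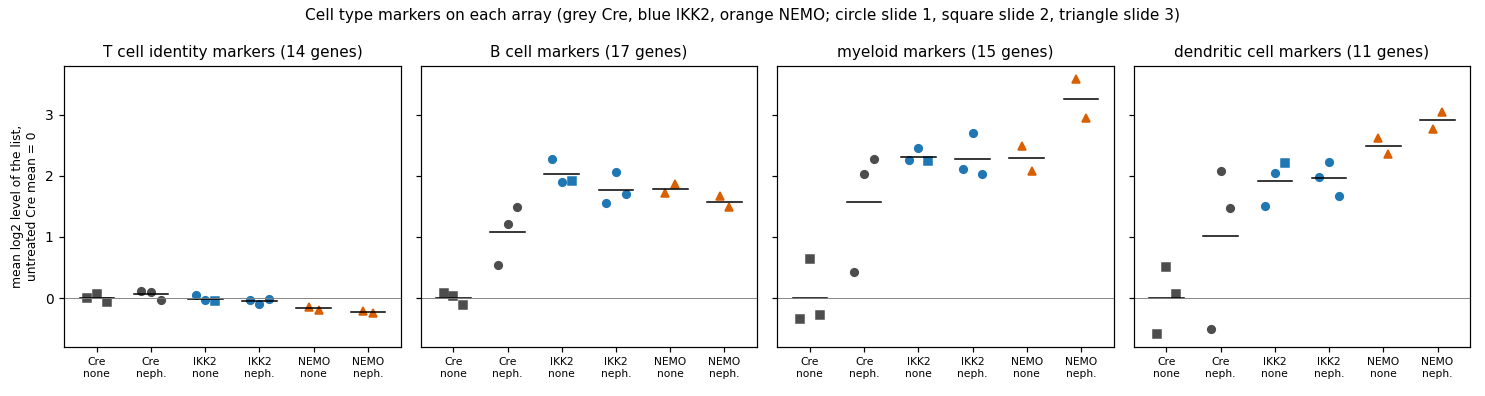
Mean log2 level of 4 lists of cell type markers on each array (vertical axis, relative to the mean of the untreated Cre arrays) in the 6 groups; points are arrays, shapes slides and bars group means. T cell markers stay between -0.24 and 0.11, whereas B cell, myeloid and dendritic cell markers have their lowest group means in untreated Cre controls and vary among the nephritic Cre arrays, where dendritic cell markers range from -0.50 to 2.08.

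The genes whose levels followed each subunit most closely were sought over the 12 Cre and IKK2 arrays, which share slides and genotypes, by Pearson's r. For Relb these were Dtx4 (r = 0.98, Spearman's rho 0.97), Vps54 (0.97, 0.93) and Gsr (0.96, 0.95). For Nfkb2 they were Lpxn (0.96, 0.91) and Plxna3 (0.95, 0.90). For Rela they were Camk2g (0.94, 0.83), Armc3 (0.94, 0.80) and Igbp1 (0.93, 0.73), and for the brighter Nfkb1 probe Nfyc (0.91, 0.91), Gpsm2 (0.91, 0.83) and Agpat4 (0.88, 0.83). Without the 2 arrays farthest from the subunit's median, r lay between 0.79 and 0.97 for the genes named.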

How the data were processed

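Spot intensity on a linear scale, as deposited by the authors for each of 16 Agilent 1-colour (Cy3) arrays, was the main input. Per the file headers it came from Feature Extraction 10.7.3.1, and the processed column has background subtraction and detrending applied; the submitters' processing notes name version 10.5. A log2 matrix that the authors deposited for the same arrays served only as an alternative, and how it was made has no source here.

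Control spots and outlier spots (103 to 246 per array) were left out and spots of a probe averaged. Log2 processed intensity was centred on each array's 75th percentile, taken over all probes that are not controls. RefSeq accessions (assembly GRCm38.p6) named 27235 of 55681 probes. Probes had to be well above background on 2 or more arrays (34938 probes), and the brightest such probe by mean stood for its gene (14675 genes). Limma 3.58.1 (lmFit, eBayes, 11.8 degrees of freedom) in R 4.3.3 fitted the means of 6 groups over the 16 arrays. Two-sided p-values were adjusted by Benjamini-Hochberg over all genes, or all probes, with a threshold of 0.05. The model was tested on simulated data. Python 3.11.15 and matplotlib 3.10.9 drew the plots. Median signals stood in for mean signals in the normexp alternative, since the files give none of the latter. With 2 or 3 arrays in a group, precision is low.

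The subunit genes, pathway lists and marker lists were chosen with earlier results of these data known. Genes named beside the subunits were, for each pathway list and each comparison of a knockout with Cre controls, up to 3 genes past the threshold with the largest difference, and for each subunit the 3 genes with the highest correlation. Ikbkb, Map3k14 and single cell type markers were named outside this rule. Some items that the rule covers are not reported here.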

Additional observations from a re-analysis of the deposited data

How the results depend on the processing

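Across 33 alternatives, the 14 called differences of subunit genes kept their sign in all 426 values and stayed past the threshold in 361. Of 34 differences that had not passed, 9 of 1058 values passed. The marker covariates ended 6 (B cell) and 9 (myeloid and dendritic) of the 14 calls, and leaving out any 1 array ended 0 to 4. In the comparisons between genotypes, both covariates also lowered the number of calls among all genes, as given below. The tested probes of the subunit genes were well above background on all 16 arrays, so the depth of signal sets no bound on these values.

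The number of subunit genes called in the untreated IKK2 knockout against Cre, 1, became 2 with the percentile taken over probes detected on all arrays, with quantile normalization and with a filter of at least 8 arrays, and 0 with slide as a fixed block, on slide 2 alone, with only the compared arrays fitted and with either marker covariate. In the nephritic IKK2 knockout the count of 2 became 1 with normexp, with the authors' matrix, with the replicate block and with the myeloid and dendritic covariate. It became 0 on slide 1 alone (Relb adjusted p = 0.0842, Nfkb2 0.115), with only the compared arrays fitted, with the B cell covariate and without the 2 Cre arrays that stood apart. In the untreated NEMO knockout the count of 3 became 0 with either covariate, and in the nephritic one 2 became 0 with the myeloid and dendritic covariate. Under that covariate Nfkb2 differed by 0.39 (adjusted p = 0.344) and 0.50 (adjusted p = 0.109) from Cre in the untreated and nephritic NEMO knockout and Rela by -0.15 (adjusted p = 0.535) and -0.32 (adjusted p = 0.0723). Between the nephritic knockouts 4 became 2 with normexp, the authors' matrix, slide as a random block and the myeloid and dendritic covariate. The number of calls among all genes moved as well. In the untreated IKK2 knockout 2137 became 752 with slide as a fixed block and 920 with only the compared arrays. It became 0 with the B cell and 35 with the myeloid and dendritic covariate. In the nephritic one 378 became 73 on slide 1 alone, 49 with only the compared arrays and 28 with the B cell covariate. In the untreated NEMO knockout 6315 became 838 and 2249 with the 2 covariates. Where no value above shows otherwise, the cause of these changes was not tested. Leaving out 1 array at a time gave 0 to 2 called genes for each IKK2 comparison, 1 to 3 and 1 to 2 for NEMO against Cre without and with nephritis, and 2 to 4 between the nephritic knockouts.

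Replicate numbers did not pair the arrays: deviations of arrays with the same number correlated at -0.20 to 0.13 (median -0.01). With the replicate block, Nfkb2 in the nephritic IKK2 knockout (-0.65, adjusted p = 0.0513) was the only subunit call lost. A fixed slide block could not be fitted between NEMO and the other genotypes.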
